A study of Mus musculus with 13 samples.

Results

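The ATP-binding cassette (ABC) genes of subfamilies A, B, C, E, F and G were examined in gluteal white adipose tissue (WAT), the subcutaneous fat of the hindquarters. Members were the genes of the count table whose symbol is Abca, Abcb, Abcc, Abce, Abcf or Abcg followed by a digit. This gave 43 of 34419 genes, with 14 in subfamily A, 9 in B, 10 in C, 1 in E, 3 in F and 6 in G, and no pseudogene had to be dropped. *Abca15*, *Abca16* and *Abcb5* were not analysed here. The tissue came from male C57BL/6J mice that were 13 weeks old and had been kept since birth at 22°C (n = 7) or at 29°C (n = 6), the latter close to thermoneutrality for mice. Mice of both groups lost the hair of the hindquarters after weaning, were housed singly and had little bedding, so both groups lacked fur there. There was 1 library of RNA per mouse. Whole tissue was sequenced, so fewer cells of a type and less RNA per cell cannot be told apart.

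ABC proteins bind and hydrolyse ATP. Most of them sit in a membrane and use that energy to carry lipids, sterols, bile acids, drugs or conjugated metabolites across it. Subfamilies A and G are best known for lipid and sterol export, B for drug efflux, phospholipid export and transport across mitochondrial membranes, and C for the export of organic anions and for the regulatory subunits of potassium channels. Subfamilies E and F have no membrane-spanning segments and work with ribosomes. In fat, ABCA1 and ABCG1 carry cholesterol out of adipocytes and macrophages and are induced by the oxysterol receptors called LXRs.

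Upstream sequences are shown for the members with P-adj below 0.1 that have an entry in RefSeq's table for GRCm38.p6, and for a pair of sterol transporters that share 1 promoter region. Of the 43 members, 34 had an entry and 9 did not, among them *Abcc3*. *Abca5* lies on the minus strand, at chr11:110337717-110337966, and *Abca7* on the plus strand, at chr10:79996244-79996493. The 250 bases before each start follow, 5′ to 3′ along the gene, with the GC-box core GGGCGG or its reverse complement in capitals.
Abca5: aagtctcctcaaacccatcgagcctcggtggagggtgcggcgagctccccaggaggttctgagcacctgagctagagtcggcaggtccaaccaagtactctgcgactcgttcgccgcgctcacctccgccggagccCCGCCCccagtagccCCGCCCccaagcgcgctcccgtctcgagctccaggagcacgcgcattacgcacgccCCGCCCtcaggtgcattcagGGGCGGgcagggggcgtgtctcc
Abca7: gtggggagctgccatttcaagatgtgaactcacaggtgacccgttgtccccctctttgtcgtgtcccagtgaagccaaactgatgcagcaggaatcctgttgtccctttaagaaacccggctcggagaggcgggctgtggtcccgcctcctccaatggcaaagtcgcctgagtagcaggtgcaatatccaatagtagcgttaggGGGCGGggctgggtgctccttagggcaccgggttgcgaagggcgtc
The *Abca5* stretch held 4 matches and the *Abca7* stretch 1. The same letters were found on either strand in the 250 bases before the start of 32.7% of all 32851 promoters in the table. By gene, 17 of the 34 members with an entry held them in at least 1 of their entries. The first share counts single entries and the second counts genes, which can have several entries, so they cannot be compared. *Abcg5* and *Abcg8* encode the partners of a sterol exporter and are transcribed away from each other. Between their starts lie 109 bases at chr17:84683012-84683120, shown on the plus strand from *Abcg5* towards *Abcg8*, with GATAA or its reverse complement TTATC in capitals.
Abcg5 to Abcg8: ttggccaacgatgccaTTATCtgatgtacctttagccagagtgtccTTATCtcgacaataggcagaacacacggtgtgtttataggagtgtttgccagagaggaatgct
The stretch held 2 matches, and 9.36% of all promoters held 1 or more in the 109 bases before their start. A match describes letters and is no measurement of binding.

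Total counts were between 22356637 and 25245785. 22°C replicates 1 to 5 formed a cluster of lower totals, whereas the 6 mice at 29°C, with 22°C replicates 6 and 7, formed a cluster of higher totals, so temperature at similar totals rests on 2 mice at 22°C. The 10 markers of white adipocytes summed to 23753 to 38212 CPM (counts relative to library sizes that were scaled by TMM) in every library, and none was at 0 in either group. 22°C replicates 1 and 7 stood apart, with 70460 and 95247 CPM over 18 skeletal muscle markers against 152 to 14925 CPM in the other libraries. Replicate 7 is also 1 of the 2 mice at 22°C on which every comparison within the higher totals rests. 22°C replicate 4 also stood apart, with 353 CPM over 6 genes of mesothelium, the lining of body cavities, against 4.37 to 14.2 CPM elsewhere. The mesothelium genes were chosen after their values were seen.

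Of the 43 members, 32 had enough counts to be tested. *Abca1*, the cholesterol exporter that loads apolipoprotein A-I, had the highest level per length. Its level was 33.4 CPM per kb of exon at 22°C and 34.9 CPM per kb at 29°C, which was 14.4% and 15.1% of the summed level of all members per length. *Abcf2* and *Abcf1* followed with 22.5 and 21.6 CPM per kb over both groups. *Abca8a* came next with 16.5 CPM per kb. Among the tested members the lowest mean level per length was that of *Abca4*, the retinoid flippase of photoreceptors, with 0.129 CPM per kb at 22°C and 0.0748 CPM per kb at 29°C. Mice of a group differed by an SD of 4.40% (*Abcf3*) to 136% (*Abcb4*) of the mean level of a tested member at 22°C, and of 3.42% (*Abcf1*) to 70.5% (*Abcb4*) at 29°C. The summed level of all members was 232 CPM per kb at 22°C and 231 CPM per kb at 29°C.

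**Figure D1:**
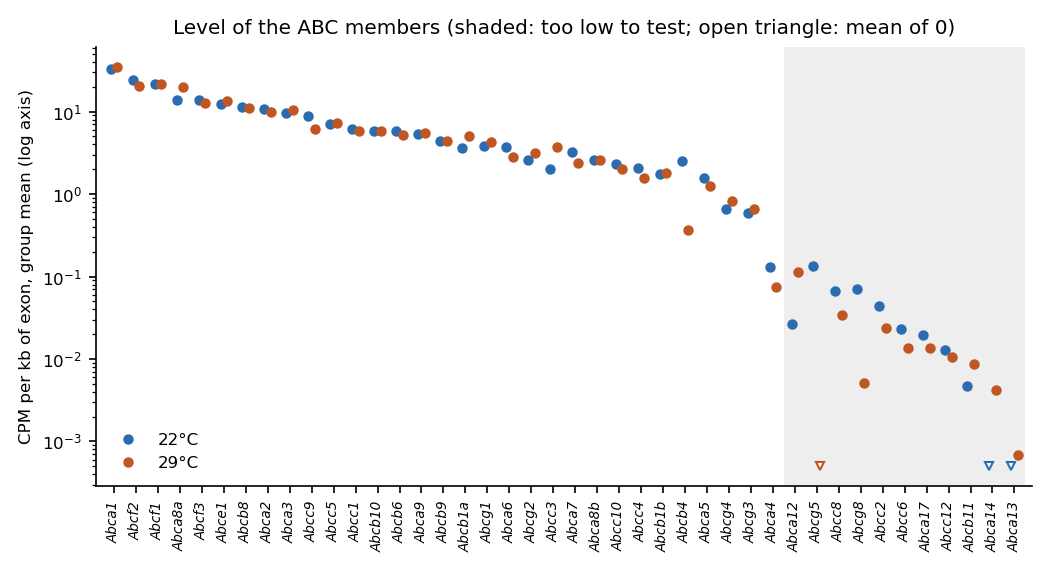
Mean level of each of 42 members per kb of exon at 22°C and at 29°C, on a log axis and in order of mean level, with the members too low to test shaded. *Abca1* led with 33.4 CPM per kb at 22°C and 34.9 CPM per kb at 29°C, and the points of the groups lay close to each other for most tested members, with *Abcb4* as the widest gap among them.

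Temperature went with a clear difference in 1 member, *Abcc3*, and with small differences in *Abca5* and *Abca7*. *Abcc3* was lower at 22°C, and *Abca5* and *Abca7* were higher. These 3 members of 32 passed P-adj below 0.1 in edgeR's quasi-likelihood test, which is 9.38%, whereas 1.94% of all 17779 tested genes passed. *Abca5* and *Abca7* were close to the threshold, with P-adj of 0.0896 and 0.0994 (edgeR). In 11 of 13 fits with 1 mouse left out, 1 member passed. The members were chosen with earlier results of these data known, so the shares describe them and are no test of the group. By direction, 2 of 32 members were higher at 22°C against 0.731% of all tested genes, and 1 of 32 was lower against 1.21%. An unadjusted p below 0.05 was found for 9 members (28.1%) and for 18.5% of all tested genes. Log2 fold changes, given throughout as 22°C relative to 29°C, were positive for 17 and negative for 15 members, with a median of 0.012 for the members and 0.0074 for all tested genes. The median size of the log2 fold change, without its sign, was 0.17 for the members and 0.14 for all tested genes, and for 17 members it was below 0.2. P-adj of the 29 members that did not pass was between 0.156 and 0.989. DESeq2, run as an alternative, called 6 of the 33 members for which it gave a P-adj. It called 1676 (10.2%) of all 16388 genes for which it gave one. The 6 members are named next. These were *Abcc3*, *Abca5* and *Abca7* together with *Abca8a*, *Abcb1a* and *Abcb4*.

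**Figure D2:**
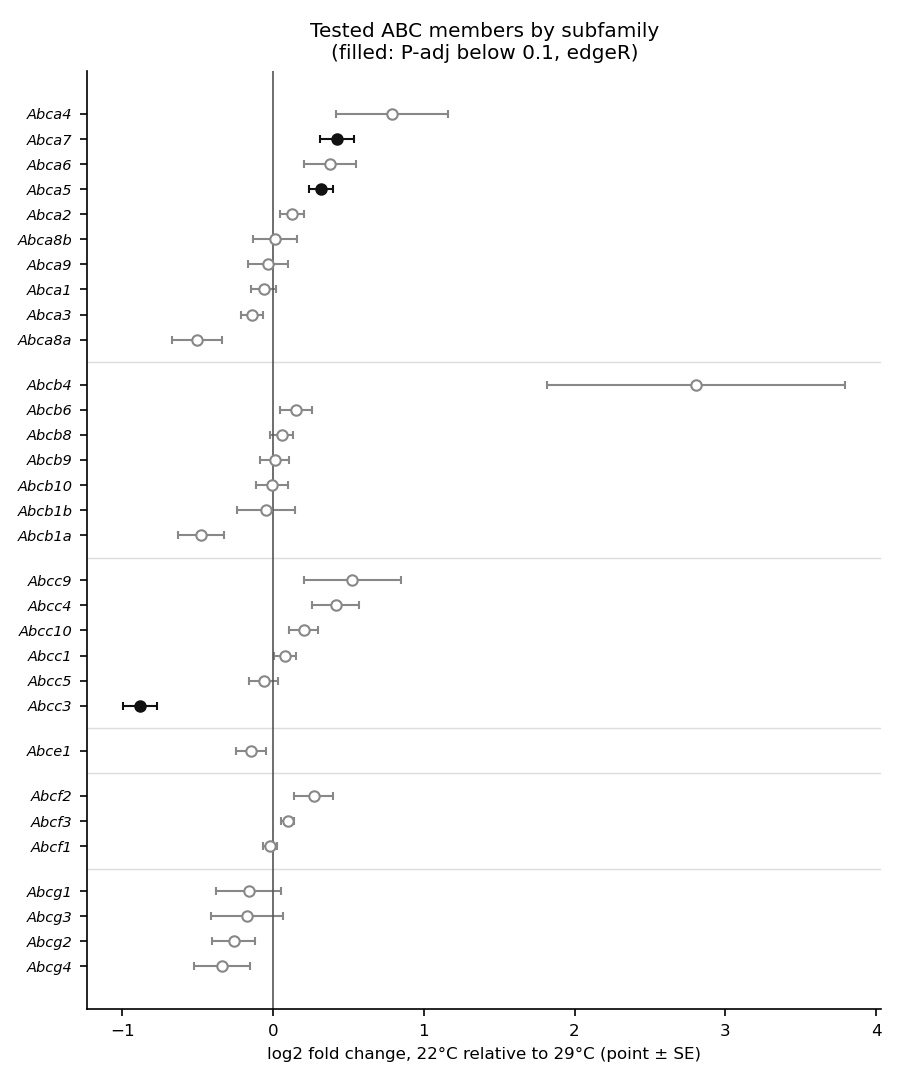
Log2 fold change of each of 31 tested members with its standard error, by subfamily, positive values being higher at 22°C and filled points having P-adj below 0.1. *Abcc3* at -0.88 stands alone on the lower side, *Abca5* and *Abca7* are at 0.32 and 0.42, and *Abcb4* at 2.81 has the largest value and the largest error.

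*Abcc3* (ENSMUSG00000020865.17) encodes an exporter of glucuronides, bile acids and other organic anions. At 22°C its level was 8.16 CPM in the lowest mouse, 11.2 CPM at the median and 14.3 CPM in the highest. At 29°C the lowest mouse had 18.7 CPM, the median was 20.7 CPM and the highest mouse had 24.1 CPM. Every mouse at 22°C was below every mouse at 29°C. The means were 11.4 ± 1.97 CPM (SD, n = 7) and 21.0 ± 1.79 CPM (SD, n = 6), so the level was 1.84-fold higher at 29°C. On the log2 scale the fold change was -0.88 with SE 0.11 (P-adj = 0.00673, edgeR). Leaving out 1 mouse at a time gave P-adj from 0.00274 to 0.0271. Without 22°C replicates 1 and 7, the libraries rich in muscle transcripts, the log2 fold change was -0.80 (P-adj = 0.0121, edgeR). Within the 8 libraries with higher totals, 2 of them from 22°C, it was -0.97 (P-adj = 0.0815, edgeR). With the cluster of totals as a covariate it was -0.96, with P-adj = 0.118 in edgeR, where 4 genes of all tested passed. No 50-base stretch of *Abcc3* transcripts recurred in another gene, and no exon of another annotated gene overlapped its exons.

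*Abca5* (ENSMUSG00000018800.15) encodes a transporter of late endosomes and lysosomes. Its level in the mice at 22°C was between 16.9 and 20.8 CPM with a median of 17.6 CPM. At 29°C it was between 11.7 and 15.8 CPM with a median of 15.0 CPM. All 7 mice at 22°C were above all 6 mice at 29°C, so *Abcc3* and *Abca5* were the 2 members of 32 (6.25%) whose groups did not overlap, against 1.24% of all tested genes. With CPM from library totals that were not scaled by TMM, the groups of *Abca5* overlapped and those of *Abcc3* did not. The log2 fold change of *Abca5* was 0.32 with SE 0.080 (P-adj = 0.0896, edgeR), a 1.25-fold higher level at 22°C. *Abca5* kept P-adj below 0.1 in 1 of 13 fits in which single mice were left out, the fit without 22°C replicate 6 (0.0784). P-adj was between 0.111, without 22°C replicate 7, and 0.170, without 29°C replicate 3, in the other 12. In the libraries with higher totals alone the log2 fold change was 0.24 (P-adj = 0.470, edgeR).

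*Abca7* (ENSMUSG00000035722.16), whose protein moves phospholipids and takes part in phagocytosis, was between 19.2 and 25.8 CPM at 22°C with a median of 20.9 CPM. At 29°C it was between 13.8 and 20.01 CPM with a median of 15.5 CPM. Of the 7 mice at 22°C, 5 were above every mouse at 29°C and the other 2 were within the range of the mice at 29°C. The highest levels, 25.8 and 25.02 CPM, belonged to 22°C replicates 1 and 7, the libraries rich in muscle transcripts. The level was 1.34-fold higher at 22°C, a log2 fold change of 0.42 with SE 0.11 (P-adj = 0.0994, edgeR), and without those 2 libraries it was 0.32 (P-adj = 0.189, edgeR). *Abca7* kept P-adj below 0.1 without 22°C replicate 6 (0.0853) and without 29°C replicate 4 (0.0957), and P-adj was between 0.105 and 0.220 in the other 11 such fits, the highest without 29°C replicate 3. In the libraries with higher totals alone the log2 fold change was 0.46 (P-adj = 0.341, edgeR).

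*Abca5* is the last of 5 subfamily A genes that follow each other on chromosome 11 without another protein-coding gene between them, in the order *Abca8b*, *Abca8a*, *Abca9*, *Abca6* and *Abca5* in RefSeq's annotation. The 5 neighbours did not share a direction. *Abca6*, next to *Abca5*, had a log2 fold change of 0.38 with SE 0.17 (P-adj = 0.268, edgeR), with 5 of 7 mice at 22°C above every mouse at 29°C. *Abca9* was at -0.03 and *Abca8b* at 0.01, and both changed sign when single mice were left out. *Abca8a* was at -0.50 with SE 0.17 (P-adj = 0.162, edgeR; 0.0574 with DESeq2). Its level was between 64.4 and 112 CPM at 22°C with a median of 84.8 CPM, and between 82.9 and 155 CPM at 29°C with a median of 128 CPM. The 3 lowest mice were all at 22°C, and the highest mice, from 114 to 155 CPM, were all at 29°C, with the rest mixed. Within the libraries with higher totals the log2 fold change of *Abca8a* was -0.84 (P-adj = 0.280, edgeR). *Abca8a* and *Abca8b* share few 50-base stretches with each other (1.64% and 1.42% of their own), and the sum of both gave a log2 fold change of -0.42 (P-adj = 0.187, edgeR).

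**Figure D3:**
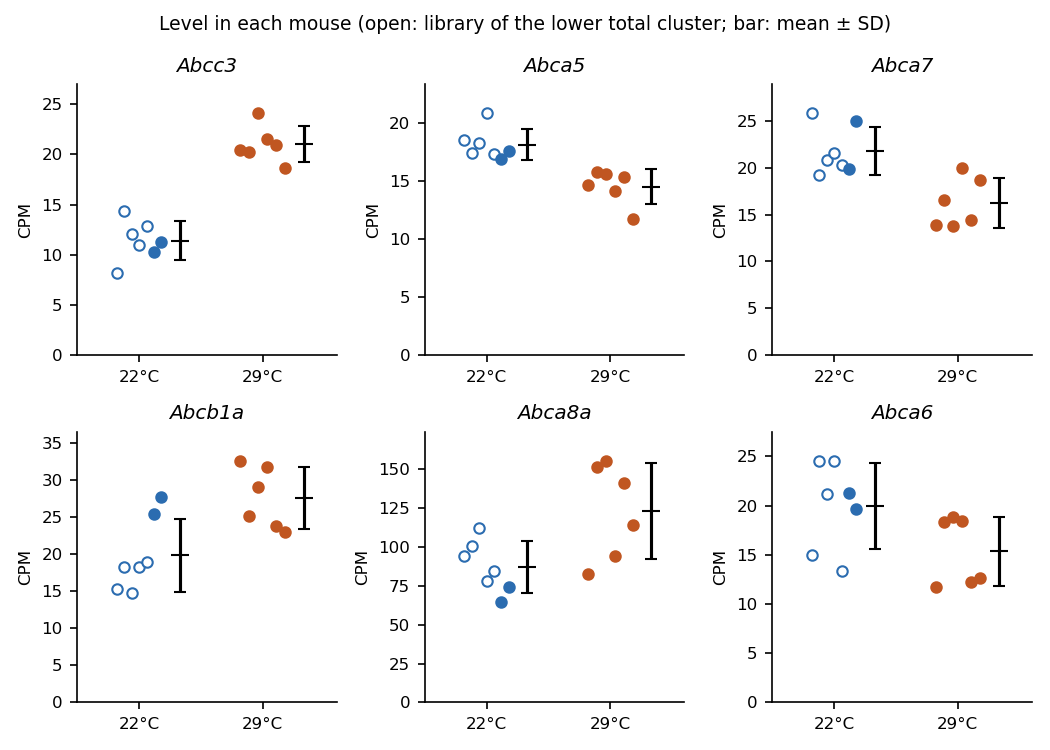
Level of 6 members in each mouse in CPM, with the mean and SD of each group beside the points and open points for the libraries of the lower total cluster, which were all from 22°C. *Abcc3* and *Abca5* separate the temperatures, *Abca7* overlaps by 2 mice at 22°C, and for *Abcb1a* the filled points of 22°C lie among the mice at 29°C.

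Beside *Abca5* and *Abca7*, no exporter of sterols or phospholipids in subfamilies A and G passed. *Abca1* was between 290 and 386 CPM at 22°C with a median of 354 CPM, and between 309 and 395 CPM at 29°C with a median of 372 CPM. The groups overlapped over most of their range, and the log2 fold change was -0.06 with SE 0.085 (P-adj = 0.736, edgeR). *Abcg1*, which exports cholesterol to HDL, varied more between mice, with 20.4 to 36.3 CPM at 22°C against 18.5 to 49.6 CPM at 29°C. The log2 fold change of *Abcg1* was -0.16 with SE 0.21, and it turned to 0.01 without 29°C replicate 4, the mouse with the highest level. The other tested members of subfamily G were also on the negative side without passing. *Abcg4*, a sterol exporter best known from brain, was at -0.34, *Abcg2*, a drug and urate exporter, at -0.26, and *Abcg3*, at 2.10 and 2.37 CPM on average, at -0.17. In subfamily A, *Abca2*, a lysosomal lipid transporter, had a log2 fold change of 0.12. *Abca3*, the phospholipid transporter of lamellar bodies, was at -0.14. Of the 50-base stretches of *Abca3*, 10.1% recur in other annotated genes, so its counts may be incomplete. *Abca4* was at 0.79 with SE 0.37 (P-adj = 0.279, edgeR), and 97 of its 393 counts came from 22°C replicate 4, the library with mesothelium genes. Their part in the *Abca4* value was not tested, but without that mouse the log2 fold change was 0.34.

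Of 17 genes of LXR signalling and sterol handling beside the ABC members, all were tested and 1 passed. *Npc1*, which moves cholesterol out of lysosomes, averaged 62.5 CPM (SD 5.88, n = 7) at 22°C against 50.1 CPM (SD 5.01, n = 6) at 29°C, so its log2 fold change came to 0.32 with SE 0.077 (P-adj = 0.0873, edgeR). *Apoe*, the most abundant of the list and an acceptor of exported cholesterol, was 3022 ± 667 CPM at 22°C and 3820 ± 247 CPM at 29°C (P-adj = 0.237, edgeR). *Srebf1*, the regulator of lipid synthesis and an LXR target, was 669 ± 135 and 662 ± 86.9 CPM. Over the list the median log2 fold change was -0.02. With 1 mouse left out at a time, none of the partners of any list passed in 9 fits, 1 passed in 3 fits, and 4 passed without 22°C replicate 6.

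Members known for drug and conjugate efflux were measured next to *Abcc3*, and none of them passed. *Abcb1a* (ENSMUSG00000040584.9) encodes a P-glycoprotein, the efflux pump of endothelium and other barriers. It was between 14.8 and 27.8 CPM at 22°C with a median of 18.3 CPM, and between 23.0 and 32.6 CPM at 29°C with a median of 27.2 CPM. The 5 mice of the lower total cluster were below every mouse at 29°C, and 22°C replicates 6 and 7, with 25.4 and 27.8 CPM, were among them. The log2 fold change was -0.48 with SE 0.15 (P-adj = 0.156, edgeR), but within the libraries with higher totals it was -0.06. For the other 5 mice at 22°C the cluster of totals and the temperature cannot be told apart. P-adj was 0.0976 without 22°C replicate 6. The 11 endothelial markers summed to 593 to 811 CPM at 22°C (median 706) and 599 to 870 CPM at 29°C (median 822). None of them was at 0 and none was called. Their log2 fold changes were positive for 2 and negative for 9, with a median of -0.15. The part of endothelium in the *Abcb1a* value was not tested.

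*Abcb1b*, the paralog that lies next to *Abcb1a*, was at -0.05 (SE 0.19). Of the 50-base stretches in *Abcb1a* transcripts, 22.5% recur in other annotated genes, with 16.3% in *Abcb1b*. Of those of *Abcb1b*, 12.8% recur in other genes, with 11.1% in *Abcb1a*. Exons of other genes on the opposite strand cover 10.1% of the exon bases of *Abcb1a*. The counts of *Abcb1a* and *Abcb1b* are thus less certain than those of *Abcc3*, and summing both covers only what they share with each other. Their sum had a log2 fold change of -0.31 (P-adj = 0.190, edgeR). In subfamily C, *Abcc4*, which exports prostaglandins and cyclic nucleotides, averaged 13.3 CPM (SD 3.42, n = 7) at 22°C against 9.95 CPM (SD 1.08, n = 6) at 29°C. The fold change on the log2 scale was 0.42 with SE 0.15 (P-adj = 0.193, edgeR), with the highest levels in 22°C replicates 6 and 7. Within the libraries with higher totals, where those are the only mice at 22°C, it was 0.81 (P-adj = 0.204, edgeR). Without 22°C replicates 1 and 7, the libraries rich in muscle transcripts, it was 0.26 (P-adj = 0.390, edgeR). *Abcc10* was at 0.20, *Abcc1*, a glutathione conjugate exporter, at 0.08 and *Abcc5*, an exporter of nucleotide analogs, at -0.06. Of 16 genes of xenobiotic sensing and organic anion handling, 15 were tested and none passed, with a median log2 fold change of -0.02. *Gstm1* and *Slco2b1*, the most abundant of them, were at -0.12 and -0.44. Log2 fold changes were positive for 6 and negative for 9 of the 15. *Ugt1a6a*, which makes glucuronides, was at -0.37 (P-adj = 0.168, edgeR), and *Gsta3* was at 0.60 (P-adj = 0.205, edgeR). *Nr1i2*, the pregnane X receptor, was too low to test. *Gsta3*, *Ugt1a6a* and the other members of large detoxification families share sequence with near copies, and their counts may be split.

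Levels of some members went with skeletal muscle transcripts. *Abcb4* (ENSMUSG00000042476.13), a phosphatidylcholine exporter that lies next to *Abcb1b*, had the largest log2 fold change of all tested members, 2.81 (SE 0.99; P-adj = 0.179, edgeR; 0.0453 with DESeq2). Its level was between 1.86 and 72.3 CPM at 22°C with a median of 7.76 CPM, and between 0.505 and 6.52 CPM at 29°C with a median of 2.53 CPM. 22°C replicates 1 and 7 held 70.6 and 72.3 CPM, and the other 5 mice at 22°C were at 11.1 CPM or lower. Those are the libraries with 70460 and 95247 CPM of muscle markers, and 29°C replicate 6, with the fewest muscle transcripts (152 CPM), also had the lowest *Abcb4* level. Without 22°C replicates 1 and 7 the log2 fold change was 0.55 (P-adj = 0.726, edgeR), and with a muscle score as a covariate it was -0.14 (P-adj = 0.935, edgeR). All 18 muscle markers had positive log2 fold changes, with a median of 3.13, and none was called. The cause of the *Abcb4* difference was not tested.

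The regulatory subunits of ATP-sensitive potassium channels followed the same libraries. *Abcc9*, which encodes SUR2, was 137 and 146 CPM in 22°C replicates 1 and 7 and between 38.4 and 65.3 CPM in the other 11 mice. The log2 fold change of *Abcc9* was 0.53 with SE 0.32 (P-adj = 0.407, edgeR), and -0.10 without those 2 libraries. Summed over 10 markers of pericytes and smooth muscle, the level was also highest in these 2 libraries. The sums were 2566 and 2046 CPM there against 552 to 1042 CPM elsewhere. Of these markers, 3 had positive and 7 had negative log2 fold changes, with a median of -0.09, so the sum need not hold for each of them. The part of either kind of muscle or of pericytes in the *Abcc9* value was not tested. *Abcc8*, which encodes SUR1 of pancreatic beta cells, was too low to test, with 126 counts over all libraries and its highest counts, 17 and 32, in the same 2 mice. The channel pores *Kcnj8* and *Kcnj11*, which pair with these subunits, were both tested and neither passed. *Kcnj11* averaged 19.98 CPM (SD 28.5, n = 7) at 22°C against 2.0 CPM (SD 2.17, n = 6) at 29°C, and the pores summed to 64.5 and 81.1 CPM in 22°C replicates 1 and 7 against 7.49 to 24.6 CPM elsewhere. *Kcnj8* was at 0.10.

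**Figure D4:**
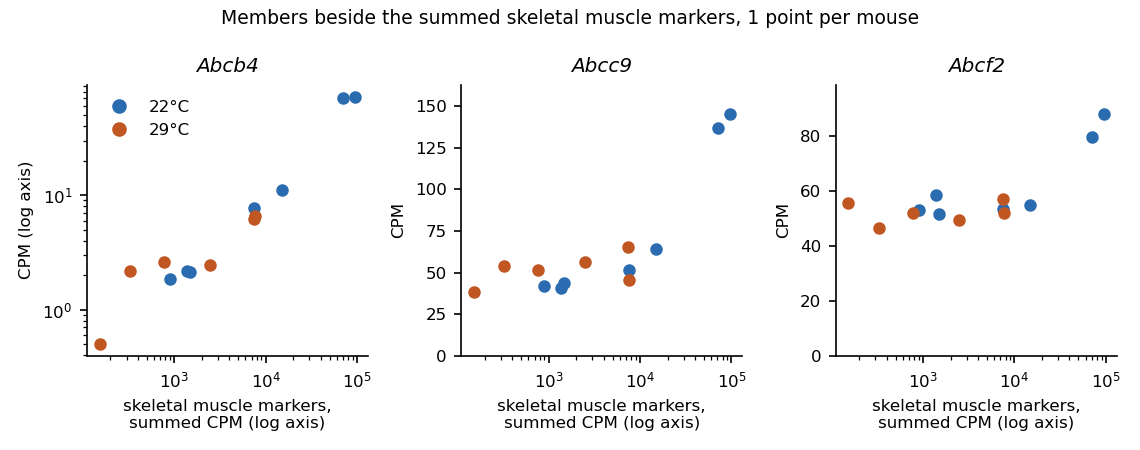
Level of *Abcb4*, *Abcc9* and *Abcf2* in CPM against the summed CPM of 18 skeletal muscle markers on a log axis, 1 point per mouse. 22°C replicates 1 and 7, at 70460 and 95247 CPM of markers, are the highest points in each panel.

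In subfamily B, the mitochondrial members *Abcb8* and *Abcb10* did not pass. *Abcb8* was at 0.06 and *Abcb10*, which takes part in heme synthesis, at -0.01. Of the 50-base stretches of *Abcb10*, 8.27% recur in the annotated gene *Gm45890*, so the counts of *Abcb10* may be incomplete. *Abcb6*, a porphyrin transporter, was at 0.15, but 50.0% of its 50-base stretches recur in the annotated gene *Gm29253*, which overlaps it on the same strand, so its counts may be incomplete. *Abcb9*, a peptide transporter of lysosomes and no mitochondrial protein, was at 0.01. Of 20 genes of mitochondrial iron-sulfur cluster and heme synthesis, all were tested and 1 passed. *Alas1*, the enzyme that starts heme synthesis, and *Slc25a39*, the most abundant genes of the list, were at -0.11 and 0.16. Over the list the median log2 fold change was 0.06.

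The soluble members of subfamilies E and F were abundant, and none passed. *Abcf1*, which takes part in translation initiation, was between 91.1 and 101 CPM at 22°C with a median of 92.1 CPM, and between 92.2 and 101 CPM at 29°C with a median of 95.3 CPM. The ranges were nearly the same, and the log2 fold change was -0.02 (SE 0.046). *Abcf3* varied as little, by 4.40% of its mean at 22°C and 3.67% at 29°C (SD over mean), and was at 0.10 with SE 0.044 (P-adj = 0.252, edgeR). *Abcf2* was between 51.7 and 88.1 CPM at 22°C with a median of 55.1 CPM, and between 46.4 and 57.0 CPM at 29°C with a median of 52.0 CPM. Its highest levels, 79.7 and 88.1 CPM, were again those of 22°C replicates 1 and 7, and its log2 fold change was 0.27 with SE 0.13 (P-adj = 0.283, edgeR) with them and 0.06 without them. *Abce1*, the factor that splits ribosomes after termination, was at -0.15 (SE 0.10). None of 12 genes of ribosome recycling and termination passed, and their median log2 fold change was -0.01. *Etf1* and *Gspt1*, the release factors and the most abundant genes of that list, were at 0.04 and -0.12.

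The remaining 10 members that were too low to test had between 2 and 338 counts over all 13 libraries, and some of them came from single mice. A count of 0 allows up to 3 counts, which is 0.119 to 0.134 CPM depending on the library, and these limits cover counting error only. *Abcg5* had 59 of its 60 counts in 22°C replicate 4, and *Abcg8*, which shares the promoter region shown above, had 40 of its 47 counts there. *Abcg5* had no count in any mouse at 29°C. That library held 353 CPM of mesothelium genes and 70.3 CPM of 10 luminal epithelium markers, against 2.31 to 39.0 CPM of the latter in the other mice, and their part in the *Abcg5* and *Abcg8* counts was not tested. *Abca12*, the lipid transporter of keratinocytes, had 216 of its 338 counts in 29°C replicate 4, where 10 markers of stratified epithelium summed to 778 CPM. The next highest counts were 55 in 29°C replicate 5 and 29 in 22°C replicate 5, with 224 and 234 CPM of these markers. In the 8 mice with fewer than 40 CPM of the markers *Abca12* had at most 1 count. *Abcc2*, the canalicular exporter of conjugates, had 57 counts at 22°C and 31 at 29°C, and *Abcc6* had 21 and 12. *Abca17*, *Abcc12* and *Abcb11*, the bile salt export pump, had 30, 25 and 11 counts in all, *Abca14* had 4 counts in 1 mouse, and *Abca13* had 2.

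**Figure D5:**
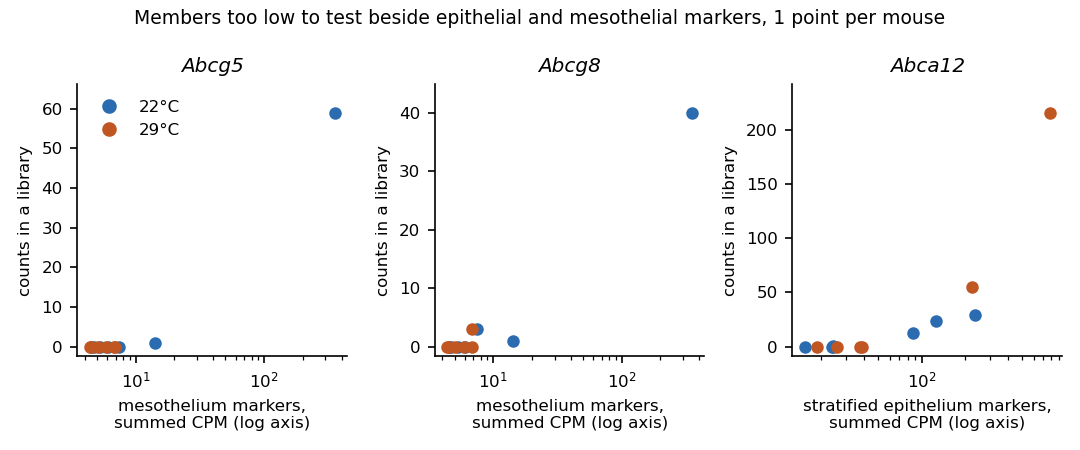
Counts of *Abcg5* and *Abcg8* in each library against the summed CPM of 6 mesothelium genes, and of *Abca12* against 10 stratified epithelium markers, with the markers on a log axis. 1 library of 22°C holds 59 and 40 counts of *Abcg5* and *Abcg8* at 353 CPM of mesothelium genes, and 1 library of 29°C holds 216 counts of *Abca12* at 778 CPM of epithelium markers.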

How the data were processed

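RNA-seq of gluteal WAT from 13 mice was grouped by temperature, and numbered, as the submitters' labels give it. The authors aligned reads with STAR 2.7.5a and deposited raw counts per gene from featureCounts, with GRCm39 named in the submitters' processing notes. The strand setting and annotation release are not given in the sources used here. The authors also deposited regularized log2 values from DESeq2. Symbols were matched by gene identifier without version, which gave 34006 of 34419 genes a symbol. Since the annotation at hand is GENCODE M21 (GRCm38), it was used for exon lengths, overlaps, neighbours and shared 50-base stretches, and no gene coordinates of the count table are given.

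Counts were compared with edgeR 4.0.16 in R 4.3.3, with filterByExpr, TMM normalization, the quasi-likelihood F test without covariates or block, and Benjamini-Hochberg adjustment over 17779 genes. Genes with P-adj below 0.1 were called, following the study's threshold. The SE follows from the log2 fold change and the F statistic. Total counts were 22356637 to 25245785 per library. The lowest chi-square per gene over 78 pairs of libraries was 11.3, so no library was counted as a copy of another. Each library was taken as 1 mouse, as the study counts its animals.

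The members and gene lists were chosen with earlier results of these data known. Values per mouse are given for *Abcc3*, for called members, for members without overlap, for the 3 highest levels per length and for the largest and smallest log2 fold change; partners are named when called or among the 2 most abundant of a list. Others (*Abca8a*, *Abcb1a*, *Abcc9*, *Abcc4*, *Abcg1*, *Nr1i2*, *Ugt1a6a*, *Gsta3* and members too low to test) were singled out after their values were seen. 1 member and 1 partner are in the counts and medians but are not reported here by name or in the figures. The methods were tested on simulated counts. Alternatives were DESeq2 1.42.0, its size factors, 2 other filters, robust fitting, the replicate number as a block, each mouse left out, a muscle score or total cluster as covariate, libraries with higher totals, paralogs summed, limma 3.58.1 on the log2 values and P-adj below 0.05. Fits without 22°C replicates 1 and 7, and without replicate 7 alone to set beside the block, were added after the data were seen.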

Additional observations from a re-analysis of the deposited data

Results flagged for a closer look

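A value was marked as standing apart when its gap to the nearest mouse of its group, divided by the range of the group, passed Dixon's 95% critical value. This was checked in 64 groups (32 tested members at each temperature), where chance gives about 5%, and 4 values (6.25%) were marked. *Abca3* was 82.9 CPM in 29°C replicate 1, below the other 5 mice at 29°C, which were between 98.8 and 103 CPM. The other 3 values belonged to 22°C replicate 4, the library with mesothelium genes. *Abca4* was 4.06 CPM there against 0.895 to 1.46 CPM in the other mice at 22°C, *Abcb1b* was 21.7 CPM against 11.02 to 14.3 CPM, and *Abca5* was 20.8 CPM against 16.9 to 18.6 CPM. Without that mouse the log2 fold change of *Abca5* was 0.28 (P-adj = 0.146, edgeR) and that of *Abcb1b* was -0.19.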

How the results depend on the processing

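*Abcc3* kept its direction and P-adj below 0.1 under every alternative but the total cluster as a covariate (-0.96, P-adj = 0.118, edgeR); its log2 fold change was -0.81 to -0.94 with each mouse left out. The number of members called, 3, was 6 with DESeq2, 1 without a filter on low counts, 1 with the muscle score, 0 with the total cluster, 1 within the higher totals, 1 without 22°C replicates 1 and 7, 1 at P-adj below 0.05, and 1 to 4 with each mouse left out (1 in 11 fits, 4 without 22°C replicate 6). The number of all genes called, 345, was 1676 with DESeq2, 42 without a filter, 41 with the muscle score, 4 with the total cluster, 8 within the higher totals, 184 without 22°C replicate 7 alone, and 32 (without 29°C replicate 3) to 652 (without 22°C replicate 6) with each mouse left out. The number of pathway partners called, 2, was 8 with DESeq2, 0 without a filter, 0 with the muscle score, the total cluster and within the higher totals, 0 without 22°C replicate 7, 1 without 22°C replicates 1 and 7, and 0 to 4 with each mouse left out. The median log2 fold change of the members, 0.012, was 0.0945 with the total cluster and 0.0858 within the higher totals. The number of members without overlap, 2, was 1 with unscaled totals. The cause of these shifts was not tested.

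With the replicate number as a block, which left out 22°C replicate 7, 1 member and 1 partner were called, against 1 and 0 in the same libraries without the block. Deviations of same-numbered mice correlated by 0.05 to 0.51, with replicate 5 lowest, so the numbers were not taken to pair the mice. *Abca8b* was -0.028 under the block and -0.032 in the same libraries without it, and *Abcb1b* 0.01 (0.0119) under the block and 0.0022 in those libraries without it.

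Beside *Abcc3*, 10 tested members that are named here changed sign under 1 or more alternatives and 20 did not, and none was called with the changed sign. With the total cluster, *Abca8b* was -0.053, *Abca9* 0.070, *Abcb10* 0.12, *Abce1* 0.00060 and *Abcg3* 0.27. Within the higher totals, *Abca8b* was -0.059, *Abca9* 0.061, *Abcb10* 0.12 and *Abcg3* 0.26. With the muscle score, *Abca8b* was -0.11, *Abcb4* -0.14 and *Abcc9* -0.18. Without 22°C replicates 1 and 7, *Abca8b* was -0.11, *Abca9* 0.030, *Abcb1b* 0.034 and *Abcc9* -0.10. *Abcb10* was 0.0029 with limma. With each mouse left out, *Abca8b* was -0.043 to 0.12, *Abca9* -0.10 to 0.030, *Abcb10* -0.061 to 0.061, *Abcb1b* -0.19 to 0.067, *Abcb9* -0.026 to 0.056 and *Abcg1* -0.28 to 0.013.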
